A study of Rattus norvegicus with 9 samples.

Results

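Thyroid hormone supply and response was followed in the frontal cortex through 5 genes chosen by name, Dio2, Thra, Thrb, Klf9 and Hr. All 5 were among the 37209 genes of the count table, and all 5 passed the filter on low counts. Total RNA of the frontal cortex, called the prefrontal cortex (PFC) in the study, was sequenced after rRNA depletion in 9 male Wistar rats aged 14 weeks. The 3 Control rats (A1, A2 and A6) had been reared by their dams without separation. The 3 MS rats (B3, B4 and B6) were pups of dams taken to another cage for hours daily (maternal separation) between PND 1 and PND 21. The 3 EA rats (C3, C10 and C16, labelled MS+EA) were separated likewise and were later given electroacupuncture at Baihui (GV20) and Yintang (GV29) on alternate days between PND 61 and PND 81. Per the labels, Control and MS rats were anaesthetised as well, and no sequenced group received sham needling. The litters of the 9 rats are not given, so the tests measure the spread between these rats, of which some may be littermates. No thyroid hormone level is part of these data.

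Thyroxine (T4) reaches the brain through membrane transporters and is converted there to the active hormone T3, mostly in astrocytes. Dio2 encodes the type 2 deiodinase that makes this T3, and Dio3 encodes the deiodinase that inactivates it. Thra and Thrb encode the nuclear receptors TRα and TRβ, which bind DNA as partners of retinoid X receptors, hold target genes down with corepressors when empty, and activate them when T3 is bound. Klf9, a Krüppel-like transcription factor, and Hr, the corepressor Hairless, are classical genes induced by T3 in the rodent brain. Klf9 is also induced by glucocorticoids, and Thra gives a splice form, TRα2, that does not bind T3. The counts are per gene, so splice forms of Thra and Thrb were not resolved.

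The start regions of the enzyme gene and of the response gene Klf9 are shown because they stand for the supply and the response end of the pathway. The 250 bases before the annotated start were taken from RefSeq on build GRCr8, in which 4 of the 5 genes matched an entry, and Hr had none. The Dio2 window lies on the minus strand at chr6:115410595-115410844, and the Klf9 window on the plus strand at chr1:230126396-230126645. Both are printed 5′ to 3′. Capitals mark the only matches to the 5 motifs searched on both strands, the letters of a TATA box (TATAAA) in Dio2 and the core of a cAMP element (TGACGT) in Klf9.
Dio2: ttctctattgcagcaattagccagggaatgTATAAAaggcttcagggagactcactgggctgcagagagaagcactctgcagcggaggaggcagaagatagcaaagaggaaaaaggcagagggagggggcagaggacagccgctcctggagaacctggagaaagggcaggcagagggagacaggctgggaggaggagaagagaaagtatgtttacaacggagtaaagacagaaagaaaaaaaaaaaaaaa
Klf9: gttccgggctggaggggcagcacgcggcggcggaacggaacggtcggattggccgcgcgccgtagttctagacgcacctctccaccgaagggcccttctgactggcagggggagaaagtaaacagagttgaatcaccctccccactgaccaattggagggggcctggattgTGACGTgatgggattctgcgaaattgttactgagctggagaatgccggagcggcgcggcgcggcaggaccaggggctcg

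A TATAAA match was present in 12.9% of the 33469 RefSeq windows of this length, and a TGACGT match in 6.95%. The hexamer bound by thyroid hormone receptors, AGGTCA, was present in 14.1% of all windows and in none of the windows of Dio2, Klf9, Thra and Thrb, which says only that these letters are not there. The clock E-box CACGTG, in 5.59% of all windows, was also in none of them. The GC box GGGCGG, in 30.5% of all windows, occurred 4 times in the Thrb window and 4 times in 1 of the 2 Thra windows, with overlapping matches counted separately. The GC content was 74.0% in the Thrb window and 79.6% in that Thra window, against 49.6% for Dio2, 63.6% for Klf9 and a median of 51.2% over all windows.

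The values below are CPM, the counts of a gene scaled to a common library total after TMM normalization, which evens out library composition. Differences are log2 fold changes with their SE, written as MS versus Control, EA versus MS and EA versus Control, and each pair of these comparisons shares a group of rats. Total counts per rat lay between 16106381 and 19007907 in the Control and MS groups and between 12479905 and 14913736 in the EA group, so depth moved with the EA group and its part in the results was not tested. A gene was called at an edgeR adjusted p under 0.05 together with a fold change above 1.5, the thresholds of the study. The MS rat B4 stood apart in some markers of tissue outside the cortex. The summed level of 7 hypothalamic and tanycyte markers was 48.3 CPM in B4 and between 1.19 and 6.96 CPM in the other rats. Most of it in B4 came from Oxt (oxytocin) and Avp (vasopressin), with 16.1 and 31.5 CPM. Pmch, Agrp, Pomc and Hcrt of that list had only 0.250, 0.125, 0.313 and 0 CPM in B4. The summed level of 6 choroid plexus markers was 20.9 CPM in B4 against 1.47 to 7.15 CPM in the other rats. Rax, a tanycyte marker, had 0 counts in every rat. Neurons and astrocytes were represented in all rats, with 7 neuronal markers summing to between 5205 and 6780 CPM and 8 astrocyte markers to between 4964 and 6386 CPM.

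No member was called in any comparison. For MS versus Control 0 of 5 members and 0.0238% of the 16837 genes tested were called, for EA versus MS 0 of 5 and 0.0178%, and for EA versus Control 0 of 5 and 1.37%. At an unadjusted edgeR p under 0.05 the counts were 1 of 5 members (Thra) against 10.6% of all genes for MS versus Control, 1 of 5 (Dio2) against 12.4% for EA versus MS, and 3 of 5 (Dio2, Thra and Thrb) against 22.5% for EA versus Control. The fitted folds of these 5 differences lay between 0.815 and 0.892. With DESeq2, limma-trend or edgeR's likelihood ratio test, 0 members were called in every comparison as well. The enzyme and both receptors had their lowest group means in EA rats, and Hr had its lowest in Control rats. Klf9 had nearly equal means of 120 CPM in MS and 120.8 CPM in EA rats, against 125.6 CPM in Control rats. The share of all genes with their lowest mean in EA rats was not counted.

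**Figure D1:**
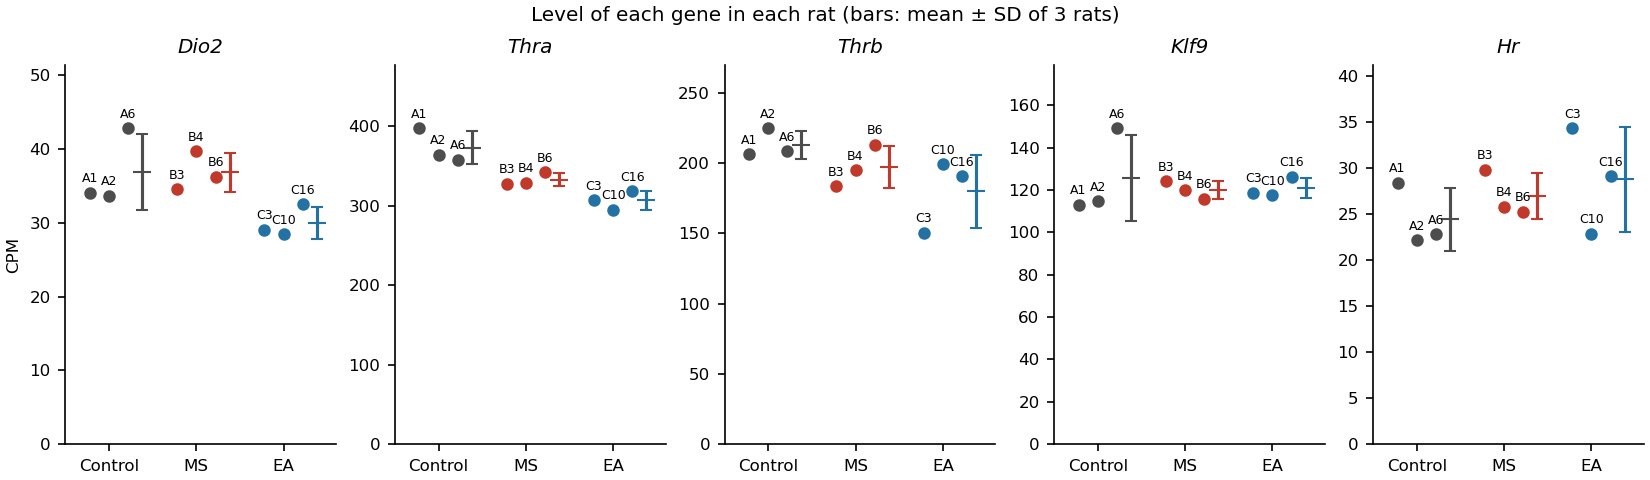
CPM of the 5 genes (vertical axes from 0, each with its own scale) in each rat of the Control, MS and EA groups, with the mean and SD of 3 rats as bars. For Dio2 and Thra all 3 EA rats lie under every other rat, whereas the groups overlap for Klf9 and Hr.

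Dio2, the T3-producing enzyme, had 34.1, 33.7 and 42.8 CPM in the Control rats A1, A2 and A6. It had 34.5, 39.7 and 36.3 CPM in MS rats (B3, B4, B6), and 29.1, 28.5 and 32.5 CPM in the EA rats C3, C10 and C16. Every EA rat was below every rat of the other groups, which held for 5.89% of all genes, and the Control and MS rats overlapped. These values rest on 409 to 688 reads per rat.

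Control and MS rats had the same mean level of Dio2, 36.8 ± 5.14 CPM and 36.8 ± 2.64 CPM (SD, n = 3). The 95% interval of the MS difference reached from -15.1% to 17.8%, and a change of 1.5-fold lies outside it. In EA rats the mean was 30.0 ± 2.18 CPM (SD, n = 3), and the log2 fold change was -0.30 relative to MS rats (edgeR, SE 0.110, adjusted p = 0.319, unadjusted p = 0.0187). Relative to Control rats it was also -0.30 (edgeR, SE 0.110, adjusted p = 0.132). Without the Control rat A6 the latter value was -0.17, and without the MS rat B4 the former was -0.23 (edgeR adjusted p = 0.627). B4 had the highest Dio2 of the MS rats, 39.7 CPM, and stood apart in the hypothalamic and choroid plexus markers above. A6, the highest of all rats in Dio2, did not stand apart in them. The part of such tissue in the Dio2 values was not tested.

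Since Dio2 is an astrocyte gene in cortex, the astrocyte markers are given beside it. The 8 markers summed to between 5319 and 6386 CPM in Control, 5886 and 6159 CPM in MS and 4964 and 5905 CPM in EA rats. For EA versus MS 6 of the 8 were lower, 1 of them at an unadjusted p under 0.05, with a median log2 fold change of -0.16. Per 1000 counts on these markers, Dio2 had 5.34, 6.33 and 7.34 counts in Control, 5.87, 6.45 and 6.04 in MS and 4.92, 5.74 and 5.53 in EA rats. On this scale the EA rats were still below the MS rats but overlapped the Control rats. In bulk tissue, fewer cells of a type and less RNA per cell cannot be told apart.

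The inactivating enzyme Dio3 was near the detection floor, with 8 to 19 reads in Control, 5 to 12 in MS and 1 to 12 in EA rats. Its log2 fold changes had standard errors of about 0.60 to 0.64, and a difference was not detectable at this depth. Dio1, the liver and kidney type, had at most 7 reads in a rat and was not tested.

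Thra, the gene of TRα, showed an ordered series of levels. It had 397, 364 and 358 CPM in the Control rats, 328, 329 and 342 CPM in the MS rats and 307, 295 and 318 CPM in the EA rats, in the order A1, A2, A6, B3, B4, B6, C3, C10 and C16. Every Control rat was above every MS rat, and every MS rat above every EA rat, an order found for 167 genes, or 0.992% of those tested. Thra is the only member with this order, which was looked for after the values had been seen.

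The mean level of Thra was 373 ± 21.1 CPM in Control, 333 ± 8.15 CPM in MS and 307 ± 11.7 CPM in EA rats (SD, n = 3). The step from Control to MS rats was a log2 fold change of -0.16 (edgeR, SE 0.0636, adjusted p = 0.374), and that from MS to EA rats was -0.12 (edgeR, SE 0.0637, adjusted p = 0.468). Neither passed the test over all genes. EA and Control rats differed by -0.28 (edgeR, SE 0.0637, adjusted p = 0.0283), a decrease of 17.7% with a 95% interval from -25.3% to -9.48%. Thra thus passed the adjusted p but not the fold change threshold, as 1 of 5 members against 5.4% of all genes at the adjusted p alone. In the other comparisons 0 members had an adjusted p under 0.05.

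The adjusted p of Thra between EA and Control rats lay close to the threshold. It was under 0.05 in 12 of 18 alternative analyses, and reached from 9.9e-04 with DESeq2 to 0.129 without the Control rat A1. The 12 include the analysis without a fold threshold, which has the adjusted p of the main fit, and omissions of MS rats, which are not compared here. Among omissions of a compared rat, only that of C3 left it under 0.05. The other values above 0.05 were 0.0504 without A2, 0.0658 without A6, 0.0738 without C10, 0.0526 without C16 and 0.0535 with only the 6 rats compared. The log2 fold change stayed between -0.31 and -0.24 when each rat was left out in turn.

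Some neuronal markers moved with Thra. Slc17a7, the vesicular glutamate transporter of cortical excitatory neurons, had 1635, 1532 and 1607 CPM in Control, 1436, 1439 and 1498 CPM in MS and 1225, 1337 and 1304 CPM in EA rats. It thus had the same order of the groups without overlap, and its EA versus Control value was -0.30 (edgeR, SE 0.0629, adjusted p = 0.0207). Tubb3, a neuronal tubulin, had -0.32 in that comparison (edgeR, SE 0.0701, adjusted p = 0.0252). Over the whole list of 7 neuronal markers, 4 were negative and 3 positive for EA versus Control with a median of -0.05, among them Snap25, a synaptic protein gene, at 0.18 (edgeR adjusted p = 0.333). The summed level of the list, which Snap25 and Syt1 weigh on, lay between 6066 and 6215 CPM in Control, 6230 and 6780 CPM in MS and 5205 and 6498 CPM in EA rats. The part of these markers in the level of Thra was not tested.

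Thra overlaps Nr1d1, the clock gene of REV-ERBα, at its 3′ end over 1061 bases and Med24, a Mediator subunit gene, over 467 bases, and both lie on the other strand in RefSeq (GRCr8). The strand setting of the counting is not given in the sources used here, so reads of the shared stretches cannot be assigned with certainty. RefSeq also places uncharacterised or small loci over Thrb, Klf9 and Hr, none of which has a row under the same symbol in the count table. Nr1d1 had 91.7, 80.8 and 84.8 CPM in Control, 61.4, 61.04 and 63.4 CPM in MS and 93.5, 79.7 and 72.3 CPM in EA rats. It was therefore lowest in the MS group, with a log2 fold change of -0.47 relative to Control (edgeR, SE 0.0911, adjusted p = 0.108) and 0.40 for EA versus MS (edgeR, SE 0.0916, adjusted p = 0.184). Thra had its lowest values in the EA group, in which Nr1d1 was near the Control level. Med24 had 67.8, 71.9 and 72.6 CPM in Control, 64.0, 64.8 and 64.2 CPM in MS and 63.1, 69.4 and 62.7 CPM in EA rats, with C10 inside the Control range.

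**Figure D2:**
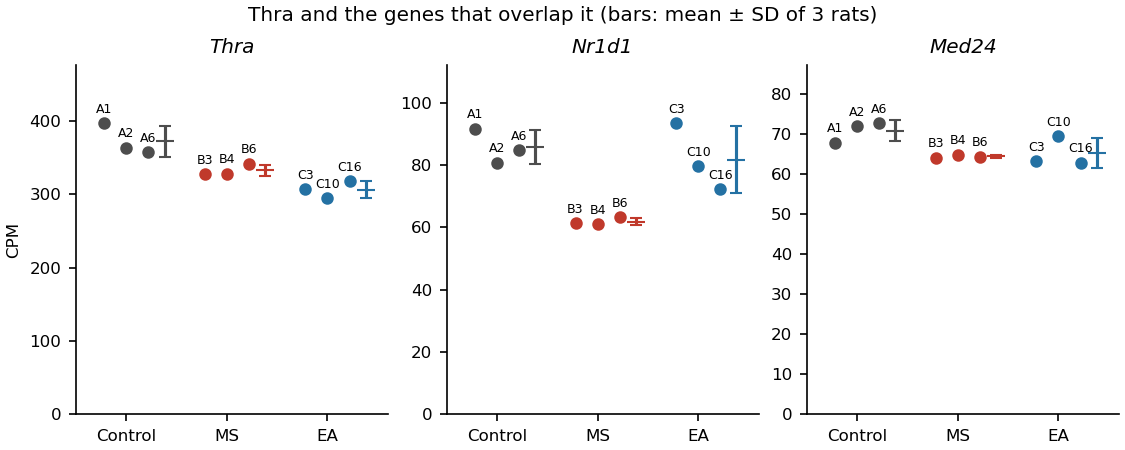
CPM (vertical axes from 0) of Thra and of the 2 genes that overlap it, Nr1d1 and Med24, in each rat, with the mean and SD of 3 rats as bars. Thra steps down from Control to MS to EA rats, and Nr1d1 is lowest in the 3 MS rats.

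Thrb, the gene of TRβ, varied more between EA rats. It had 206, 225 and 208 CPM in the Control rats, 183, 195 and 213 CPM in the MS rats and 150, 199 and 191 CPM in the EA rats C3, C10 and C16. All EA rats were below all Control rats, and the MS rats overlapped both groups. The log2 fold change was -0.24 for EA versus Control (edgeR, SE 0.0975, adjusted p = 0.162), -0.11 for MS versus Control (adjusted p = 0.723) and -0.13 for EA versus MS (adjusted p = 0.617).

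The rat C3 carried much of the Thrb difference. Without it the value was -0.12 for EA versus Control and -0.01 for EA versus MS. C3 also had the lowest summed level of the neuronal markers, 5205 CPM, and the highest of the 5 oligodendrocyte markers, 2957 CPM against 1212 to 2219 CPM in the other rats. The number of Thrb counts per 100 Thra counts lay between 51.9 and 61.7 in Control, 56.0 and 62.2 in MS and 49.0 and 67.4 in EA rats. This ratio within a library does not depend on the scaling, and the groups overlapped in it.

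The members whose groups did not overlap can be read against all genes. Between MS and Control rats this was Thra, 1 of 5 against 17.6% of the genes tested. Between EA and MS rats it was Dio2 and Thra, 2 of 5 against 17.9%. Between EA and Control rats it was Dio2, Thra and Thrb, 3 of 5 against 25.9%. The 5 genes were chosen for their roles and with earlier results of these data known, so nothing particular is read from these shares.

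**Figure D3:**
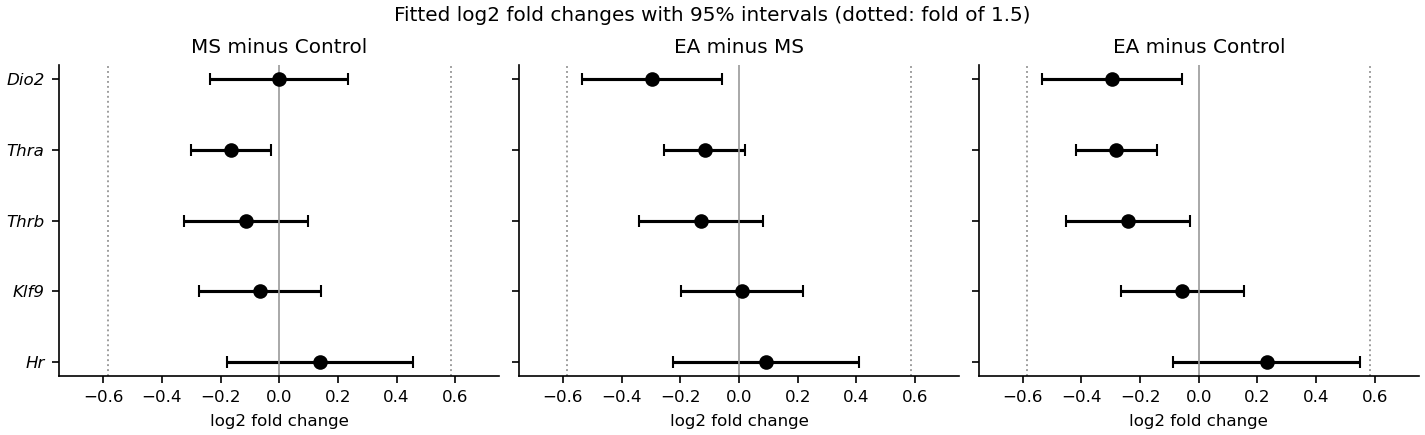
Fitted log2 fold changes (horizontal axis) of the 5 genes with 95% intervals from the edgeR model, for MS minus Control, EA minus MS and EA minus Control. No interval reaches a fold of 1.5 (dotted lines), and the intervals of Dio2, Thra and Thrb lie below 0 for EA minus Control.

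Klf9, the T3-induced transcription factor, had 113, 115 and 149 CPM in the Control rats, 124, 120 and 116 CPM in the MS rats and 119, 118 and 126 CPM in the EA rats. The groups overlapped, and a single Control rat, A6, was high. The log2 fold change was -0.06 for MS versus Control (edgeR, SE 0.0959, adjusted p = 0.857), 0.01 for EA versus MS (SE 0.0963, adjusted p = 0.980) and -0.06 for EA versus Control (SE 0.0962, adjusted p = 0.783). The 95% interval of the last difference was -16.7% to 11.2%. Without A6 its value was 0.09, of the other sign.

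Hr, the Hairless corepressor, had 28.4, 22.1 and 22.8 CPM in Control, 29.8, 25.8 and 25.3 CPM in MS and 34.3, 22.9 and 29.1 CPM in EA rats. Its range within the EA group, from C10 to C3, was wider than the distance between any group means. The mean was 24.4 ± 3.43 CPM in Control, 26.9 ± 2.49 CPM in MS and 28.7 ± 5.72 CPM in EA rats (SD, n = 3). The log2 fold changes were 0.14 for MS versus Control (edgeR, SE 0.146, adjusted p = 0.779), 0.09 for EA versus MS (SE 0.147, adjusted p = 0.838) and 0.23 for EA versus Control (SE 0.147, adjusted p = 0.377). The interval of the last reached from -5.80% to 46.6%. The last value was 0.09 without C3, 0.35 without A1 and 0.37 without C10. The MS versus Control value was 0.26 without A1, 0.07 without A2, 0.09 without A6 and 0.06 without B3.

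The members were then compared with each other over the 9 rats, as log2 CPM in 10 pairs. Thrb and Hr ran in opposite directions, with a Pearson r of -0.84 (exact permutation p = 0.00283, adjusted over the 10 pairs 0.0283) and a Spearman rho of -0.88 (exact permutation p = 0.00308, adjusted 0.0308). The permutations were made over all 9 rats without regard to group. With group means removed, r was -0.82, and no p was computed for this value. Without the rats farthest from the median of Thrb, A2 and C3, r was -0.59, and the relation rests in part on them. In the other 9 pairs no adjusted exact permutation p was under 0.2, and r lay between -0.37 for Dio2 with Hr and 0.59 for Thra with Thrb. For Dio2 with Klf9, both highest in A6, r was 0.57 over all rats, 0.83 with group means removed and -0.08 without A6 and C10. For Thra with Thrb, r was -0.03 with group means removed and 0.89 without A1 and C10.

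The rats highest in Hr, namely C3, A1, B3 and C16, were also the highest in oligodendrocyte markers. The summed level of Mbp, Mog, Mag, Mobp and Cnp was 2957 CPM in C3, which had the highest Hr and the lowest Thrb. It lay between 2120 and 2219 CPM in A1, B3 and C16, which came next in Hr with 28.4 to 29.8 CPM. In the other 5 rats it lay between 1212 and 1863 CPM, and their Hr was at most 25.8 CPM. Among these 5 the relation did not hold. A2 had the highest sum, 1863 CPM, and the lowest Hr, 22.1 CPM, while B4 had the lowest sum, 1212 CPM, and the highest Hr, 25.8 CPM. Mbp alone made up 1908 CPM of the sum in C3. For EA versus MS all 5 markers were higher with a median log2 fold change of 0.45, 1 of them (Mog) at an unadjusted edgeR p under 0.05, and for MS versus Control all 5 were lower with a median of -0.23. The part of these markers in the levels of Hr and Thrb was not tested.

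**Figure D4:**
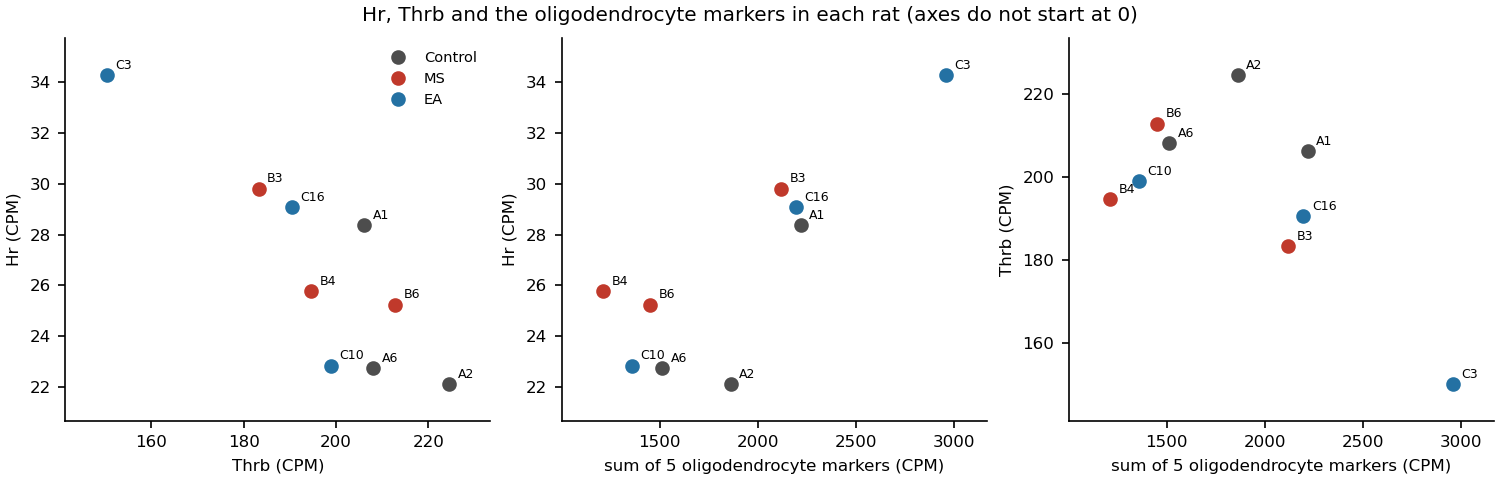
Hr against Thrb, and Hr and Thrb against the summed level of 5 oligodendrocyte markers, in CPM (axes not starting at 0), with a point per rat coloured by group. C3 has the highest Hr, 34.3 CPM, and the lowest Thrb, 150 CPM, and the 4 rats with the most oligodendrocyte marker counts are the 4 highest in Hr.

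The 3 genes whose pattern over the 9 rats was most like that of each member were named by the Pearson correlation of log2 CPM. They were Rnasek (r = 0.990), Cox4i1 (0.985) and Xpo6 (0.982) for Thra, and Npas1 (0.971), Ywhab (0.961) and Lancl1 (0.959) for Thrb. For Dio2 they were Slc26a11 (0.950), Il11ra1 (0.947) and Brk1 (0.944), and for Klf9 Pptc7 (0.958), Gnai3 (0.954) and Tnfrsf12a (0.946). For Hr they were Gal3st1 (0.946), the enzyme that makes myelin sulfatide, Fut11 (0.935) and Ptar1 (0.935). These are the highest correlations among all tested genes over the same 9 libraries and are given as a description only. The Thra neighbours Rnasek, Cox4i1 and Xpo6 had log2 fold changes of -0.48, -0.20 and -0.30 between EA and Control rats. Their edgeR adjusted p values were 0.0173, 0.0764 and 0.0207. Genes picked for a pattern like that of Thra share its group difference by selection, so these values add nothing to it.

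The genes that bring thyroid hormone into cells, convert it or bind it had mostly negative differences from Control rats. Of the 16 genes listed as transporters and carriers, deiodinases or receptors and their partners, members included, 14 were tested. For EA versus Control 12 of the 14 had negative log2 fold changes, 6 of them and 0 of the positive ones at an unadjusted edgeR p under 0.05, against 10.6% lower and 11.9% higher over all genes. Their median log2 fold change was -0.27, against 0.01 over all genes. For MS versus Control 11 were negative, 3 of them at that p, against 3.55% of all genes, with a median of -0.14. For EA versus MS 10 were negative, with a median of -0.07, and 2 of them, Dio2 and Ttr, were at that p against 6.42% of all genes. Without the MS rat B4 8 were negative and 0 were at that p. No gene of these lists was called.

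Without Dio2, Thra and Thrb, 11 tested genes were left. For EA versus Control 9 of the 11 were negative with a median of -0.26, and 3, Crym, Slc3a2 and Slc7a8, were at an unadjusted edgeR p under 0.05. For MS versus Control 8 were negative with a median of -0.17, 2 of them at that p. For EA versus MS 7 were negative, with a median of -0.01, and 1 of them, Ttr, was at that p.

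Crym, the cytosolic T3-binding protein μ-crystallin, differed most clearly among the carriers. It had 110, 128 and 128 CPM in Control, 84.9, 99.8 and 98.5 CPM in MS and 74.2, 108 and 77.1 CPM in EA rats. Every Control rat was above every MS and EA rat, narrowly for A1 against C10. Groups did not overlap for 17.6% of all genes between MS and Control rats and 25.9% between EA and Control rats. The log2 fold change of Crym was -0.49 for EA versus Control (edgeR, SE 0.129, adjusted p = 0.0459, fold below 1.5) and -0.37 for MS versus Control (SE 0.128, adjusted p = 0.302). In the alternatives the former adjusted p lay between 0.0013 and 0.142, and without C10 the gene was called, at -0.69.

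Slc7a8, the amino acid transporter LAT2 that also carries thyroid hormone, had a value of -0.25 for MS versus Control (edgeR adjusted p = 0.311) and of -0.26 for EA versus Control (adjusted p = 0.110). Slc3a2, the heavy chain partner of the LAT transporters, had -0.39 for EA versus Control (SE 0.119, adjusted p = 0.0785), and -0.27 without C10. Slco1c1, the T4 transporter OATP1C1 of brain capillaries and astrocytes, had 0.18 for MS and 0.10 for EA versus Control (adjusted p = 0.541 and 0.610).

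Ttr, the T4 carrier transthyretin of the choroid plexus and itself one of the choroid plexus markers above, had 7 to 37 reads in 8 rats and 146 in B4, the rat that also held the most choroid plexus marker counts. Ttr itself made up 9.13 of the 20.9 CPM of that marker sum in B4. Its log2 fold change for EA versus MS was -2.33 (edgeR adjusted p = 0.260). The other tested choroid plexus markers had -0.78 (Kl), -0.74 (Kcnj13) and 0.14 (Aqp1) in that comparison. The part of choroid plexus tissue in the Ttr value was not tested. Of the receptor partners, Rxra, Rxrb and Rxrg had log2 fold changes of -0.20, -0.02 and -0.46 for EA versus Control, with edgeR adjusted p values of at least 0.468. Rxrg was low, with 1.11 to 3.85 CPM.

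Of the 12 corepressors and coactivators, 0 were called. For EA versus Control 6 had positive and 6 negative values (median 0.03), and 1, Tbl1x of the NCoR complex, was at an unadjusted edgeR p under 0.05 (0.19, adjusted p = 0.0981). For EA versus MS 9 were positive and 3 negative (median 0.04), and 1, the coactivator gene Ncoa1, was at that p with a negative value (-0.16, adjusted p = 0.322). For MS versus Control 7 were positive and 5 negative (median 0.02), and 0 were at that p. Ncor1, the main corepressor of the empty receptors, differed by 0.07 for MS and 0.08 for EA versus Control (adjusted p = 0.708 and 0.495).

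The T3-induced genes were followed as a list of 12, of which 11 were tested, Klf9, Hr and the oligodendrocyte marker Mbp included. For EA versus Control 5 were higher and 6 lower (median -0.02), and 0 were at an unadjusted edgeR p under 0.05. For MS versus Control 1 of 11, Dbp, was at that p, with a negative value. For EA versus MS 3 of 11 were, with Dbp higher and Nrgn and Rasd2 lower. Nrgn, the neurogranin gene, had -0.20 (adjusted p = 0.370), and Rasd2, the small GTPase Rhes, had -0.21 (adjusted p = 0.392).

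Dbp, a transcription factor that belongs to the clock output genes as well, was the 1 T3-induced gene that was called, for EA versus MS (log2 fold change 0.86, SE 0.115, edgeR adjusted p = 0.0470). It was among the genes known to differ in these data when the list was made. Its adjusted p exceeded 0.05 without A1, B3, B4, B6 or C16, reaching 0.171, with only the 6 rats compared (0.0835) and with at least 10 counts in every rat (0.0674), and the call held in the other alternatives. Its MS versus Control value was -0.66 (edgeR, SE 0.115, adjusted p = 0.0578). That difference was called by DESeq2 (adjusted p = 6.1e-05), by edgeR's likelihood ratio test (1.2e-04), with all genes of at least 1 count in all (6.3e-05), with only the 6 rats compared (0.0277) and without C16 (0.0461), and in the other alternatives its adjusted p lay between 0.0562 and 0.270. The 9 tested clock output genes had a median of -0.48 for MS versus Control and of 0.51 for EA versus MS, whereas Klf9 had -0.06 and 0.01.

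The list of 8 glucocorticoid-induced genes, Klf9 included, turned on the Control rat A6, which was also the highest in Klf9. Sgk1, a kinase gene, had 68.4, 83.1 and 141.7 CPM in A1, A2 and A6, and Tsc22d3, the gene of the glucocorticoid-induced leucine zipper, had 43.5, 48.7 and 80.7 CPM. Per1, a clock gene that glucocorticoids also induce, had 80.2, 101.4 and 169.7 CPM. For MS versus Control 7 of the 8 were negative with a median of -0.21, 1 of them (Per1) at an unadjusted edgeR p under 0.05, and for EA versus Control 8 of 8 were negative with a median of -0.12. Without A6 the corresponding counts were 2 of 8 negative with a median of 0.04 and 2 of 8 negative with a median of 0.10. The EA versus MS values were positive for 5 and negative for 3. No gene of this list was called in any comparison.

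**Figure D5:**
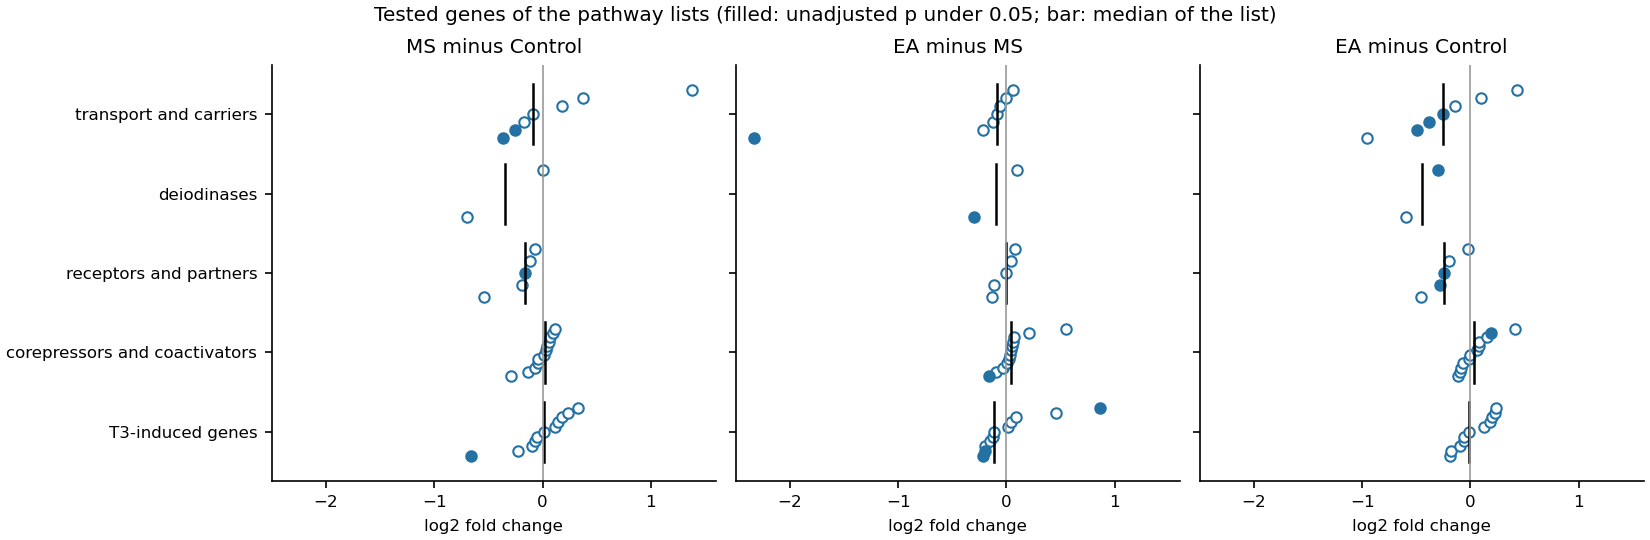
Log2 fold changes (horizontal axis) of the tested genes of 5 pathway lists for MS minus Control, EA minus MS and EA minus Control, filled where the unadjusted edgeR p is under 0.05 and with a bar at the list's median. In EA minus Control the median of transporters and carriers is -0.26, which is the value of Slc7a8. That of receptors and partners is -0.24, which is the value of the member Thrb. T3-induced genes lie around 0 with a median of -0.02.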

How the data were processed

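Frontal cortex RNA of 9 rats was sequenced with HiSeq X chemistry. The authors used Fast-QC for read filtering, mapped reads to Rnor_6.0 with HISAT2 (version 2.0.4 per the submitters' processing notes) and deposited whole-number counts per gene without normalization. The counting program, strand setting and treatment of reads with several locations are not given in the sources used here, and the EBSeq test of the study was not used. Groups were taken from the sample labels.

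Counts were normalized by TMM and fitted with edgeR 4.0.16 in R 4.3.3, with a mean per group over 9 rats, after filterByExpr (minimum count 10) had kept 16837 genes. Each contrast had a quasi-likelihood F test, with Benjamini-Hochberg adjustment over all genes tested. Standard errors are the log2 fold change over the root of F. Correlations used log2(CPM + 0.5) and exact two-sided permutation tests. The tests of group differences were run on simulated counts with larger changes than those of the members and the same spread for every gene. Their power for differences of the members' size was not tested. The permutation code was checked only on a perfect and a reversed order. With 3 rats against 3, an exact test of a single value cannot reach 0.05. The alternatives were DESeq2 1.42.0, limma-trend (limma 3.58.1, prior count 2), edgeR's likelihood ratio test, other scalings and filters, the 6 rats compared, no fold threshold, and the omission of each rat. Correlations, motif counts and plots were made in Python 3.11.15 with numpy 2.4.6, pandas 2.3.3, scipy 1.17.1 and matplotlib 3.10.9.

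The members and lists were chosen with earlier results of these data known. The genes named are the members, Nr1d1, Dio3, the 3 genes most like each member, and listed genes with an unadjusted p under 0.05 in a comparison (at most 4 per list). Slco1c1, Dio1, Med24, Ncor1, Sgk1, Tsc22d3, Slc17a7, Tubb3, Snap25, Syt1 and the retinoid X receptor genes were added after their values had been seen. Listed items withheld from the text were also left out of the list counts and marker sums and are not reported here. Flywch2, Hlf and Slco1a4 of the lists have no row under these symbols. Levels were not compared between genes, since no transcript length was used.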

Additional observations from a re-analysis of the deposited data

How the results depend on the processing

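Each of the 15 log2 fold changes of the 5 genes was computed in 18 alternatives, of which 9 left out a rat. No paired analysis was possible because each group held its own animals and each pair of groups shares fewer than 2 replicate numbers. Of the 270 values, 257 kept both their sign and their side of the threshold. The values without a fold threshold are those of the main fit, so their sign could not change. Omitting a rat of the group not compared could alter a value only through the shared filter, scaling and fit. Without a fold threshold Thra was called between EA and Control rats (-0.28), so 1 member was called instead of 0. The sign of values close to 0 changed for Dio2 for MS versus Control, with 5.1e-05 by the likelihood ratio test, 0.0060 by limma-trend, 0.0021 with at least 10 counts in every rat, 8.9e-04 with the 6 rats compared, and -0.0655 to 0.119 when single rats were left out. Leaving out single rats gave -0.137 to 0.0754 for Klf9 for MS versus Control, -0.0234 to 0.0349 for Klf9 and -0.0491 to 0.234 for Hr in EA relative to MS, and -0.128 to 0.0919 for Klf9 for EA versus Control. The cause was not tested.

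The number of all genes called depended more on the procedure than the members did. It was 4 in MS relative to Control, 3 in EA relative to MS and 230 for EA versus Control. It became 70 and 37 with DESeq2 in the first 2 comparisons, 119, 49 and 418 with the likelihood ratio test, and 207, 72 and 469 with all genes of at least 1 count in all. With only the 6 rats compared it was 11 and 1 in the first 2 comparisons. With at least 10 counts in every rat, edgeR called 0 genes for EA versus MS, where 1951 had an unadjusted p under 0.05. Without a fold threshold 910 genes passed for EA versus Control. Leaving out single rats gave 2 to 22 (lowest without A1 or A2, highest without B3), 1 to 4 (lowest without A1 or C16) and 71 to 304 (lowest without A1, highest without B4).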

Other observations

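Krüppel-like factors were followed as a list of 14 genes with Klf9 among them, of which 13 were tested, and 0 were called in any comparison. Klf16 passed the adjusted p but not the fold threshold for EA versus Control (edgeR log2 fold change -0.36, SE 0.0854, adjusted p = 0.0330). It had 53.8, 51.9 and 57.3 CPM in Control, 50.7, 48.6 and 46.3 CPM in MS and 40.5, 46.6 and 39.7 CPM in EA rats, and all MS and EA rats were below all Control rats. Klf4, a factor known from endothelial cells and stem cells, had 6.48, 13.7 and 22.0 CPM in Control, 15.98, 14.3 and 15.1 CPM in MS and 5.76, 8.58 and 10.3 CPM in EA rats. Its value was -0.88 for EA versus MS (edgeR, SE 0.337, adjusted p = 0.322), with no overlap of these groups, while the Control rats spanned both. Over all genes, groups did not overlap for 17.6% in MS versus Control, 17.9% in EA versus MS and 25.9% in EA versus Control. Klf5 had 0.60 for EA versus Control (edgeR adjusted p = 0.139), and Klf13 had -0.24 for MS versus Control (edgeR adjusted p = 0.307).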
